A study of Mus musculus with 6 samples.

Results

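The miRNAs described here are the 10 epithelial and sensory miRNAs of the mouse TaqMan arrays: miR-200a, miR-200b, miR-429, miR-200c and miR-141 of the miR-200 family, miR-183, miR-96 and miR-182 of the miR-183 cluster, and miR-203 and miR-205. They were chosen by name, as the assays that detect the major strand of these hairpins, and are 10 of 596 mouse miRNA assays in the table. By real-time PCR of total RNA, aortas were studied at the end of 4 weeks on a high-fat diet (HFD) from 3 EC-Dicerflox mice (VE-Cadherin-CreERT2, Dicer1flox/flox, Apoe-/-) and 3 EC-DicerWT mice (VE-Cadherin-CreERT2, Dicer1WT/WT, Apoe-/-). Both groups carried the tamoxifen-inducible Cre recombinase driven by the endothelial VE-Cadherin promoter, lacked apolipoprotein E, and received tamoxifen for 5 days (2 mg per 20 g body weight). The diet began 1 week later, at an age of 6 to 8 weeks. The labels give the mice as male and the paper as female. Dicer, the enzyme that cuts miRNA precursors into mature miRNAs, was therefore to be lost in endothelial cells (ECs) only, whereas the RNA came from the whole vessel wall. Fewer cells of a type and less RNA per cell cannot be told apart in such samples. By the legend of the paper's array figure, each group had 3 mice, that is 1 mouse per array. Which tissue around the vessel was removed is not given in the sources used here.

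The miR-200 family maintains the epithelial state by repressing the transcription factors ZEB1 and ZEB2, which silence E-cadherin. The miR-183 cluster is transcribed as a unit in hair cells, photoreceptors and other sensory cells, and point mutations in the seed of miR-96 cause progressive hearing loss in mice and humans. MiR-203 drives differentiation of the epidermis by repressing p63, and miR-205 is abundant in basal cells of stratified epithelia. These miRNAs are known mainly from epithelial and sensory cells, although roles of miR-200 family members in ECs have been described.

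The mature sequences are shown because the members fall into groups by seed (bases 2 to 8 from the 5′ end, in capitals), the part that pairs with target mRNAs, and because near-identical members are measured by separate assays. The sequences are from RefSeq for GRCm38.p6, in which all 10 were found under their strand names.
miR-200b-3p: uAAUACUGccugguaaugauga
miR-200c-3p: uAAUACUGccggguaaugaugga
miR-429-3p: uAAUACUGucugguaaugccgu
miR-200a-3p: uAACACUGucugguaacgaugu
miR-141-3p: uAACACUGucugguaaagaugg
miR-183-5p: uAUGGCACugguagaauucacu
miR-96-5p: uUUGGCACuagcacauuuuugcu
miR-182-5p: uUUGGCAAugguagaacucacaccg
miR-203-3p: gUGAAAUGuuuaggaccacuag
miR-205-5p: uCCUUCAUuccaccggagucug
MiR-200b, miR-200c and miR-429 shared the seed AAUACUG, and miR-200a and miR-141 shared the seed AACACUG, which differs from the first by the substitution U4C (positions counted from 1 at the 5′ end). Outside the seed, miR-200c differed from miR-200b by U11G and A22G and by an added last base, and miR-141 differed from miR-200a by C17A and U22G. The members of the miR-183 cluster each had a seed of their own, and miR-96 differed from miR-182 within the seed by A8C. The only other mature mouse miRNA in RefSeq with the seed of any member was miR-1271-5p, which shares that of miR-96. How far each assay also detects its nearest relative was not tested in these data.

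The hairpins lie in 3 genomic clusters and at 2 single loci (GRCm38.p6). Mir200b, Mir200a and Mir429 span 1846 bp on the minus strand of chromosome 4 (156053905 to 156055750), within the region of the long noncoding RNA gene Gm13648. Mir200c and Mir141 span 477 bp on the minus strand of chromosome 6 (124717914 to 124718390). Mir183, Mir96 and Mir182 span 3820 bp on the minus strand of the same chromosome (30165918 to 30169737), within the long noncoding RNA gene Mirc35hg. Mir203 lies on the plus strand of chromosome 12 (112130880 to 112130955) and overlaps Gm51289, the gene of miR-203b on the opposite strand. Mir205 lies on the minus strand of chromosome 1 (193507463 to 193507530), within Mir205hg. Seed and cluster do not coincide in the miR-200 family, since the cluster on chromosome 4 holds both seeds and so does the cluster of Mir200c and Mir141.

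The authors deposited the CT of each assay, the PCR cycle at which the signal crosses a threshold, which falls by 1 for each doubling of the template at full amplification. Wells without a signal carry a CT of 40. Over all assays, 375 to 415 of 596 miRNAs had a CT under 40 per sample, the fewest in EC-Dicerflox replicate 3, where the mean CT of the control RNAs U6 and snoRNA135 was also the highest (20.2, against 18.7 to 19.6 in the other samples). The assays of smooth muscle (miR-143 and miR-145) and ECs (miR-126-3p and miR-126-5p) gave a signal in every sample, with miR-145 at a CT of 14.69 to 14.96 and miR-126-3p at 17.1 to 19.1. The table holds no assay of Dicer mRNA. Dicer loss itself was therefore not checked here.

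In the aortas of both groups, 8 of the 10 epithelial and sensory miRNAs had a CT under 40 in all 6 samples, and these 8 were also under 35 throughout. Of the 60 wells of the 10 assays, 3 were without signal, 1 of miR-96 and 2 of miR-205. Over all assays, 350 of 596 had a CT under 40 in all 6 samples. MiR-203 came up first, at CT values of 23.7, 22.4 and 24.8 in EC-Dicerflox and 24.0, 23.6 and 25.5 in EC-DicerWT replicates 1, 2 and 3. Of the 461 miRNAs with a signal in at least 1 sample, 22.6% had a lower mean CT than miR-203. MiR-200a had CT values of 25.6 to 28.1 (median 26.7) over the 6 samples, and miR-182 had CT values of 25.7 to 28.0 (median 27.0). MiR-200c, miR-200b and miR-429, which share a seed, followed at similar cycles, with medians of 28.0, 28.7 and 29.2, respectively. MiR-183 (29.8 to 33.3) and miR-141 (30.4 to 33.9) came up later.

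MiR-96 and miR-205 had wells without signal, miR-96 in EC-DicerWT mice and miR-205 in both groups. MiR-96 had CT values of 32.6, 30.4 and 31.7 in EC-Dicerflox and of 35.1, 40 (no signal) and 33.9 in EC-DicerWT replicates 1, 2 and 3. MiR-205 had CT values of 32.8, 30.5 and 40 (no signal) in EC-Dicerflox and of 32.6, 40 (no signal) and 38.4 in EC-DicerWT mice. A signal of miR-205 at a CT under 35 was thus seen in 2 EC-Dicerflox samples and 1 EC-DicerWT sample.

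In the order of mean CT, from miR-203 (24.0) through miR-200a, miR-182, miR-200c, miR-200b, miR-429, miR-183, miR-141 and miR-96 to miR-205 (35.7), most neighbours were not parted by more than their spread. MiR-203 was ahead of miR-200a in 6 of 6 samples, by 2.85 ± 1.17 cycles (SD, n = 6). MiR-429 was ahead of miR-183 in 6 of 6 samples, by 2.17 ± 0.892 cycles (SD, n = 6). MiR-182 was ahead of miR-200c in 5 of 6 samples, by 1.29 ± 1.06 cycles (SD, n = 6). The other 6 neighbours differed on average by less than the SD of their difference, as for miR-200a and miR-182 (0.162 ± 0.911 cycles, SD, n = 6) and for miR-200b and miR-429 (0.253 ± 1.17 cycles, SD, n = 6). Assays differ in how well they amplify, so that this is an order of CT values and not of copies.

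**Figure D1:**
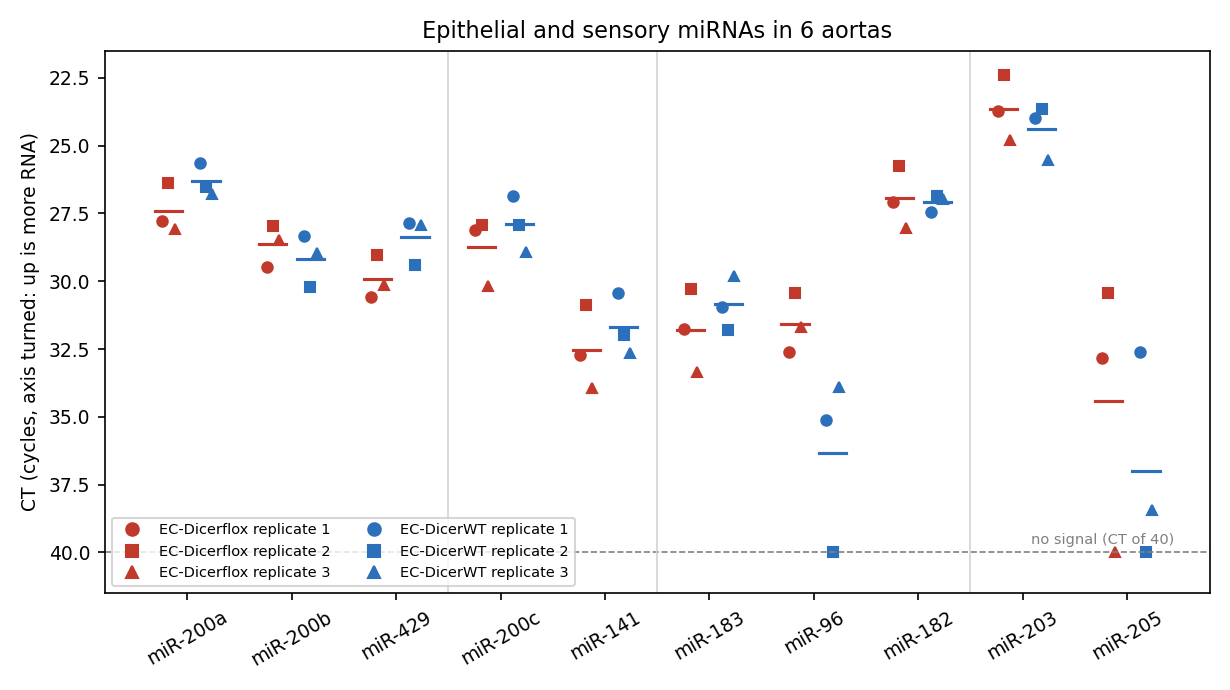
CT of each epithelial and sensory miRNA (y axis in cycles, turned so that up is more RNA) in the 3 EC-Dicerflox (red) and 3 EC-DicerWT (blue) aortas. Points are samples, bars are group means in which wells without signal enter at a CT of 40, the dashed line marks that limit, and vertical lines part the genomic clusters. Signals without gaps are seen for 8 miRNAs, while miR-96 has 1 well and miR-205 has 2 wells at the limit.

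The level of each miRNA was next taken relative to the control RNAs, as the delta CT, for which the average of U6 and snoRNA135 in each aorta was subtracted from the CT. A lower delta CT means more miRNA. Over the 6 samples, the delta CT of the 8 miRNAs with a signal throughout had a median SD of 0.799 cycles, and the SD of each of the 8 was above 0.481 cycles, the median SD of the 350 miRNAs with a signal throughout. The SD was lowest for miR-182 (0.568 cycles) and miR-200c (0.621 cycles) and highest for miR-183 (1.10 cycles) and miR-429 (1.18 cycles). Since the spread grows with CT, each was also set beside the miRNAs whose mean CT lay within 1 cycle of its own. MiR-203 had an SD of 0.728 cycles, against a median of 0.342 cycles among 51 such miRNAs, and 90.2% of these varied less. MiR-200a had an SD of 0.700 cycles, against a median of 0.383 cycles among 49. MiR-141, in contrast, had an SD of 0.870 cycles, against a median of 1.10 cycles among 41, and miR-200c lay at the median of its 64 neighbours (0.623 cycles). Of the miRNAs of similar CT, 73.5% varied less than miR-200a, 80.0% less than miR-200b, 82.8% less than miR-429, 67.3% less than miR-183, 64.6% less than miR-182, 48.4% less than miR-200c and 29.3% less than miR-141.

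**Figure D2:**
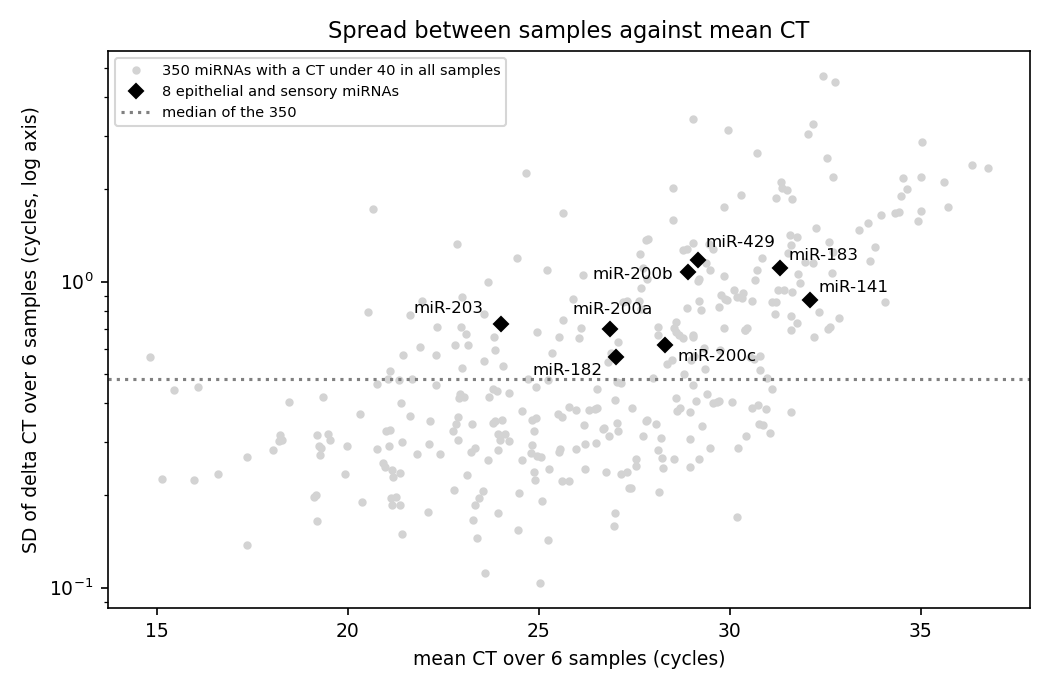
SD of the delta CT over the 6 samples (y axis, cycles, log axis) against the mean CT (x axis, cycles) for the 350 miRNAs that gave a signal in each aorta (grey) and 8 epithelial and sensory miRNAs (black). The dotted line is the median SD of the 350 (0.481 cycles), and all 8 black points lie above it.

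Endothelial Dicer deficiency was then examined by comparing the 3 EC-Dicerflox with the 3 EC-DicerWT aortas. The groups were compared with limma over the 461 miRNAs with a signal in at least 1 sample, and a log2 fold change below 0 stands for a higher delta CT, that is for less miRNA, in EC-Dicerflox mice. None of the 10 miRNAs passed an adjusted p-value of 0.05 (limma with Benjamini-Hochberg adjustment, 0.923 for each of the 10), nor did any of the 461 miRNAs (0%), among which the smallest adjusted p-value was 0.508. At an unadjusted p-value of 0.05, 1 of the 10 passed, against 14 of the 461 (3.04%), of which 9 were lower and 5 higher. These were 14 lower and 4 higher with snoRNA202 alone as the control RNA, and 7 lower and 7 higher relative to the average miRNA. The median shift of the 350 was 0.10 log2 units, beside -0.06 with snoRNA202 alone and -0.01 with 5 control RNAs. For 2 of the 10, the groups had delta CT values without overlap, against 10.4% of the 461. MiR-200a was lower in EC-Dicerflox mice, as were 4.34% of the 461 without overlap, and miR-96 was higher, as were 6.07%. The estimates were higher in EC-Dicerflox mice for 5 and lower for 5 of the 10, and their median was -0.19, against 0.08 over the 461. For 3 and 3 samples, the smallest two-sided p of an exact permutation test is 0.1.

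In the miR-200 family, 4 of 5 estimates were below 0. MiR-200a, which has the AACACUG seed, had delta CT values of 8.87, 7.68 and 7.85 in EC-Dicerflox and of 6.83, 7.58 and 7.17 in EC-DicerWT replicates 1, 2 and 3. Every EC-Dicerflox sample was thus beyond every EC-DicerWT sample on the side of less miR-200a, although EC-Dicerflox replicate 2 and EC-DicerWT replicate 2 lay close together, with a log2 difference of -0.09. The log2 fold change, -0.94 ± 0.43 (standard error), had a p-value of 0.0788 before adjustment (limma; exact permutation test with two-sided p = 0.1). Over the 14 alternatives, its unadjusted p-value ranged from 0.0437 with snoRNA202 alone as the control RNA to 0.157 with U6 alone, and was 0.0488 with trend and robust moderation and 0.152 with replicate numbers as blocks. Without EC-Dicerflox replicate 1, the estimate was -0.57 (0.201).

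MiR-429 had delta CT values of 11.7, 10.3 and 9.91 in EC-Dicerflox and of 9.03, 10.4 and 8.33 in EC-DicerWT replicates 1, 2 and 3. EC-DicerWT replicate 2 lay among the EC-Dicerflox samples. The log2 fold change of miR-429 was -1.39 (standard error 0.75, unadjusted limma p-value of 0.119), and leaving out 1 sample moved it both ways, to -1.97 (0.0401) without EC-DicerWT replicate 2, -0.86 (0.303) without EC-Dicerflox replicate 1 and -0.92 (0.298) without EC-DicerWT replicate 3. MiR-200c (-0.68, standard error 0.45, unadjusted limma p-value of 0.183) and miR-141 (-0.68, standard error 0.66, 0.343), which lie next to each other on chromosome 6, had log2 fold changes of the same size over all samples, and their groups overlapped. Without EC-DicerWT replicate 1 these were -0.31 and -0.21, and without EC-Dicerflox replicate 2 they were -0.80 and -1.22, respectively. Within pairs of the same replicate number, miR-200c was lower in EC-Dicerflox mice in 3 of 3 pairs, by log2 differences of -1.17, -0.25 and -0.63, whereas miR-141 was mixed (-2.23, 0.86 and -0.68). MiR-200b had delta CT values of 10.6, 9.25 and 8.25 in EC-Dicerflox and of 9.51, 11.3 and 9.36 in EC-DicerWT mice. These overlapped, with an estimate of the opposite sign (0.69, standard error 0.82, unadjusted limma p-value of 0.44), which was 0.07 without EC-DicerWT replicate 2, 0.13 without EC-Dicerflox replicate 3 and 1.30 without EC-Dicerflox replicate 1.

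In the miR-183 cluster, miR-96 was the member with an unadjusted p-value under 0.05. Its delta CT was 13.7, 11.7 and 11.4 in EC-Dicerflox and 16.3, 21.1 and 14.3 in EC-DicerWT replicates 1, 2 and 3, where the second EC-DicerWT value stands for a well without signal. All 3 EC-Dicerflox samples had more miR-96 than every EC-DicerWT sample. With that well at a CT of 40, the log2 fold change, 4.92 ± 1.86 (standard error), had a p-value of 0.0433 before adjustment (limma; exact permutation test with two-sided p = 0.1). The size rests on how the weak wells are entered: it was 3.00 (unadjusted p-value of 0.0337) with the well left missing and 3.21 (0.00743) with CT values above 35 set to 35. The unadjusted p-value was above 0.05 with the replicate number as a block (0.0588), with snoRNA135 alone (0.0513), with snoRNA202 alone (0.0520), with the mean of 5 control RNAs (0.0519), with the ordinary linear model (0.0823) and without any 1 of EC-Dicerflox replicates 1, 2 and 3 (0.0548, 0.107 and 0.113) or EC-DicerWT replicate 1 (0.0716).

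For the neighbours of miR-96 in the cluster, the groups overlapped. MiR-182 had delta CT values of 8.18, 7.04 and 7.80 in EC-Dicerflox and of 8.63, 7.92 and 7.37 in EC-DicerWT mice. The estimate was 0.30 log2 units (standard error 0.48, unadjusted limma p-value of 0.559), and its sign turned without EC-Dicerflox replicate 2 (-0.02) and without EC-DicerWT replicate 1 (-0.03). MiR-183 had delta CT values of 12.9, 11.6 and 13.1 in EC-Dicerflox and of 12.1, 12.8 and 10.2 in EC-DicerWT mice. Its estimate was -0.80 (standard error 0.83, unadjusted limma p-value of 0.376), and leaving out 1 sample moved it both ways, to -0.04 without EC-DicerWT replicate 3, whose value of 10.2 was the lowest, -1.36 without EC-DicerWT replicate 2 and -1.28 without EC-Dicerflox replicate 2.

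MiR-203, the regulator of epidermal differentiation, had delta CT values of 4.83, 3.70 and 4.58 in EC-Dicerflox and of 5.17, 4.69 and 5.91 in EC-DicerWT replicates 1, 2 and 3. EC-DicerWT replicate 2 lay within the EC-Dicerflox range. The log2 fold change, 0.89 ± 0.48 (standard error), had a p-value of 0.12 before adjustment (limma; exact permutation test with two-sided p = 0.2). Within pairs of the same replicate number, miR-203 was higher in EC-Dicerflox mice in 3 of 3 pairs, by log2 differences of 0.33, 0.99 and 1.34. This count depends on the numbering, in which numbers 1 and 2 were not told from each other. EC-Dicerflox replicate 1 (4.83) had less miR-203 than EC-DicerWT replicate 2 (4.69). The estimate of miR-205, 2.73 with a standard error of 2.80 (unadjusted limma p-value of 0.371), was 1.59 with CT values above 35 set to 35, and ranged from 1.03 to 5.04 when 1 sample at a time was left out. Its differences within pairs were -0.16, 9.31 and -0.94. Pair 2 sets a signal in EC-Dicerflox against a well without signal in EC-DicerWT, whereas in pair 3 the well without signal is in EC-Dicerflox.

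**Figure D3:**
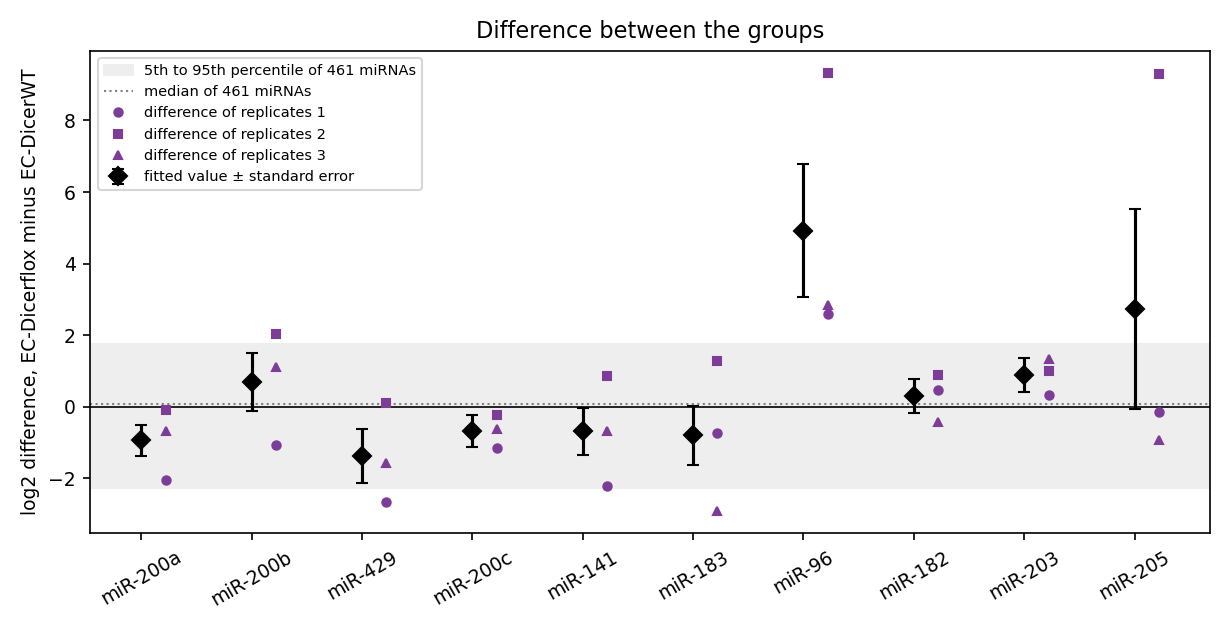
Log2 difference between EC-Dicerflox and EC-DicerWT aortas (y axis, above 0 is more in EC-Dicerflox) for each miRNA, as the limma estimate with its standard error (black) and as the difference within each pair of the same replicate number (purple). The grey band spans the 5th to 95th percentile of the estimates of 461 miRNAs and the dotted line is their median (0.08). The estimates of 8 miRNAs lie within the band, and those of miR-96 (4.92) and miR-205 (2.73) lie above it with wide errors.

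MiRNAs cut from the same cluster were compared with each other within each aorta, as the difference of their CT values, which needs no control RNA. Of the 5 pairs from the same cluster with a signal in all samples, the difference had a median SD of 0.940 cycles over the 6 samples, beside 1.10 cycles for the 23 pairs from different loci and 0.860 cycles for all 61075 pairs of the 350 miRNAs. Taken within the groups, it was 0.67 cycles for pairs of the same cluster and 1.07 cycles for the 23 others. That measure leaves out the differences between the groups, and it was not computed for all 61075 pairs. The closest pair was miR-200c and miR-141, with an SD of 0.557 cycles and a mean difference of -3.79 cycles in EC-Dicerflox and in EC-DicerWT mice alike (exact permutation test, two-sided p = 1). These pairs share members and are not independent, so that no test was made across them.

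Within the cluster on chromosome 4, the balance between miR-200b and each of its partners parted the groups without overlap. The CT of miR-200b minus that of miR-429, which has the same seed, was -1.11, -1.10 and -1.66 cycles in EC-Dicerflox and 0.481, 0.833 and 1.04 cycles in EC-DicerWT replicates 1, 2 and 3. MiR-200b came up before miR-429 in every EC-Dicerflox sample and after it in every EC-DicerWT sample. The means were -1.29 ± 0.321 cycles (SD, n = 3) and 0.783 ± 0.281 cycles (SD, n = 3), a difference of -2.07 cycles (exact permutation test with a two-sided p of 0.1). When 1 sample at a time was left out, the difference ranged from -2.22 to -1.89 cycles. Overlap of the groups was not assessed there, since leaving out a sample cannot create it.

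The CT of miR-200a minus that of miR-200b was -1.72, -1.57 and -0.403 cycles in EC-Dicerflox and -2.68, -3.69 and -2.19 cycles in EC-DicerWT replicates 1, 2 and 3. The groups did not overlap here either, and differed by 1.63 cycles (exact permutation test, two-sided p = 0.1). MiR-200a and miR-429, by contrast, kept a difference of -2.52 ± 0.404 cycles (SD, n = 3) in EC-Dicerflox and of -2.07 ± 0.858 cycles (SD, n = 3) in EC-DicerWT mice, which overlapped (exact permutation test, two-sided p = 0.7). Of the 5 pairs from the same cluster with a signal throughout, the groups did not overlap for 2, both with miR-200b. Of the 23 other pairs they did not overlap for 4, among them miR-200a and miR-203 (1.83 cycles). Of all 61075 pairs of the 350 miRNAs the groups did not overlap for 11.3%. They did so with a difference at least as large as that of miR-200b and miR-429 for 2.56%, and as that of miR-200a and miR-200b for 3.98%. These 61075 pairs were not matched for CT or spread. Of the 350 miRNAs, 80.9% had a lower SD of the delta CT than miR-200b, and 83.7% a lower one than miR-429. The shares are therefore not those among miRNAs of similar spread. These differences between pairs were chosen after the values had been seen.

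In the miR-183 cluster, the CT of miR-96 minus that of miR-182 was 5.55, 4.68 and 3.64 cycles in EC-Dicerflox and 7.69, 13.1 and 6.91 cycles in EC-DicerWT replicates 1, 2 and 3. The second EC-DicerWT value stands for the well without signal and is a lower limit. The groups did not overlap, and differed by -4.62 cycles (exact permutation test, two-sided p = 0.1), or by -2.68 cycles without EC-DicerWT replicate 2. MiR-183 minus miR-182 was 4.85 ± 0.414 cycles (SD, n = 3) in EC-Dicerflox and 3.75 ± 1.06 cycles (SD, n = 3) in EC-DicerWT mice, with overlap (exact permutation test, two-sided p = 0.3).

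**Figure D4:**
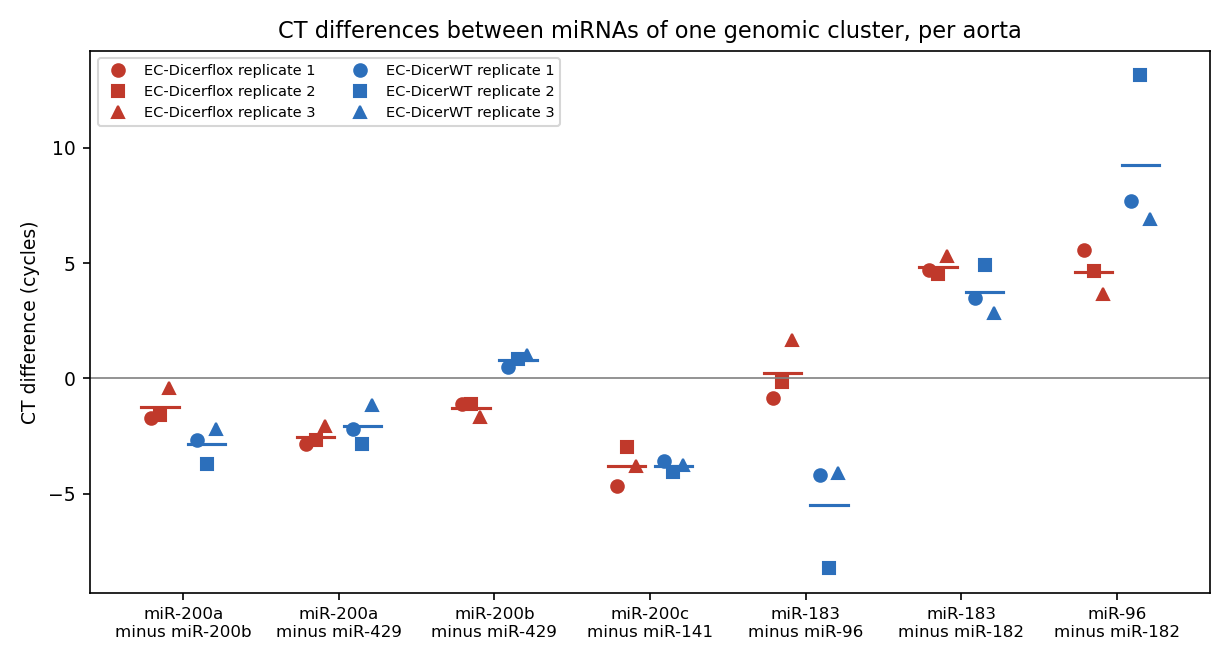
CT difference (y axis, cycles) between 2 miRNAs of the same genomic cluster in each EC-Dicerflox (red) and EC-DicerWT (blue) aorta, with group means as bars. The difference of miR-200b and miR-429 is below 0 in the 3 EC-Dicerflox and above 0 in the 3 EC-DicerWT samples, whereas the group means coincide for miR-200c and miR-141; the EC-DicerWT replicate 2 points of the pairs with miR-96 stand for a well without signal.

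The opposite strands of the same hairpins were on the arrays for miR-141 and miR-203. MiR-141* was without signal in all 6 samples. MiR-203* was without signal in EC-Dicerflox replicates 1 and 3, came up at 31.8 cycles in EC-Dicerflox replicate 2, and at 36.6, 38.6 and 36.6 cycles in EC-DicerWT replicates 1, 2 and 3. Its groups overlapped (0.17 log2 units, standard error 2.27, unadjusted limma p-value of 0.944). In every sample, MiR-203* thus came up later than miR-203 or not at all, which is again an order of CT values and not of copies.

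Of the other miRNAs known from epithelia, 11 assays were on the arrays and 10 had a CT under 40 in all 6 samples. MiR-449b was measured by 2 assays that did not match. One was without signal in all 6 samples, and the other, counted among the 10, had CT values of 30.4 to 32.7. At an unadjusted limma p-value under 0.05, 2 of the 10 were lower and 0 were higher in EC-Dicerflox mice, against 1.95% lower and 1.08% higher of the 461. MiR-375, known from pancreatic islets and neuroendocrine cells, had delta CT values of 10.6, 12.04 and 10.6 in EC-Dicerflox and of 9.08, 8.95 and 9.81 in EC-DicerWT replicates 1, 2 and 3. The groups did not overlap (-1.78 log2 units, standard error 0.53, unadjusted limma p-value of 0.018, adjusted 0.923). MiR-215, a p53-responsive miRNA of gut and kidney, had delta CT values of 12.4, 13.1 and 13.5 in EC-Dicerflox and of 12.3, 11.7 and 11.4 in EC-DicerWT mice (-1.17 log2 units, standard error 0.40, unadjusted limma p-value of 0.0313, adjusted 0.923), again without overlap. The estimates of the other 8, among them miR-192 and miR-194 of gut and liver, miR-31, and miR-34b-3p, miR-34c and miR-449a of ciliated cells, were all above 0, from 0.20 to 0.84, and none of them had an unadjusted p-value under 0.05, while the groups did not overlap for 1 of them, miR-34b-3p (0.58, unadjusted limma p-value of 0.0584). The groups were thus without overlap for 3 of the 10, against 10.4% of the 461, with 2 lower (4.34% of the 461) and 1 higher (6.07%). Summed over the 10, the level per 1000 units of the control RNAs ranged from 155 to 304 in EC-Dicerflox and from 145 to 190 in EC-DicerWT mice. In every sample, miR-31 had the lowest delta CT of the 10 (2.65 to 3.07), followed by miR-192 (3.17 to 6.25). These sums thus rest mainly on miR-31 and miR-192 and say little of the other assays. The highest sum of each group was in replicate 2 (304 and 190), where the level of miR-122, the marker of liver, was also the highest of its group (284 and 55.5, against 4.41 to 25.2 in the other samples). The part of liver RNA in these sums was not tested.

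Of the markers of leukocytes (miR-142-3p, miR-142-5p, miR-150 and miR-223), all 4 gave a signal in every sample, and 1 of 4, miR-142-5p, was lower in EC-Dicerflox mice at an unadjusted limma p-value of 0.00989 (-0.996 log2 units, standard error 0.25), as were 1.95% of the 461. MiR-142-3p of the same hairpin (-0.38, unadjusted limma p-value of 0.33), miR-150 (-0.43, 0.532) and miR-223 (0.17, 0.726) overlapped between the groups. Their summed level per 1000 units of the control RNAs ranged from 538 to 851 in EC-Dicerflox and from 690 to 1250 in EC-DicerWT mice. That of the 2 endothelial markers ranged from 2070 to 3310 and from 1790 to 1870, respectively. The groups were without overlap for both, miR-126-3p (0.41, unadjusted limma p-value of 0.193) and miR-126-5p (0.85, 0.0727), as they were in this direction for 6.07% of the 461. The part of epithelial cells, leukocytes or ECs in the differences of miR-200a, miR-429 and miR-96 was not tested.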

How the data were processed

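Total RNA of aortas of 3 EC-Dicerflox and 3 EC-DicerWT mice was, per the paper's methods, reverse-transcribed and pre-amplified with rodent Megaplex pools and run on microfluidic TaqMan cards. The authors deposited CT values, which lie on a log2-like scale that runs opposite to the amount of RNA, without normalization. How threshold and baseline were set is not given in the sources used here. The 6 columns carry the samples' own names, 0 further ones holding values of a sample were set aside, and no value was pooled.

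The 4 values of U6 and snoRNA135 per sample were averaged as the reference. The 461 miRNAs that gave a signal anywhere were fitted with limma 3.58.1 under R 4.3.3 (lmFit, then eBayes, whose prior had 1.31 degrees of freedom), and p-values were adjusted over all of them (Benjamini-Hochberg). For a single quantity, all 20 arrangements of the samples were enumerated in a two-sided exact permutation test. The limma step was also run on simulated data with known changes, the outcome of which is not reported here. The number of arrays, 3 per group, limits the precision.

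The members and lists were chosen with earlier results of these data known. Named are the 10 members, the opposite strands of their hairpins, other miRNAs known from epithelia, markers of the main cell types, and the 5 miRNAs whose profile lay nearest to the members' mean. Marker lists of blood, striated muscle, liver, neurons and brown fat served as checks: of miR-451 and miR-486 (blood), miR-1, miR-133a and miR-133b (striated muscle), miR-122 (liver), miR-9, miR-124 and miR-129-3p (neurons) and miR-193b, miR-365 and miR-455 (brown fat), none was lower or higher at an unadjusted limma p-value under 0.05, and miR-208b and miR-499 gave no signal. The groups did not overlap for miR-9 (0.49 log2 units), miR-455 (0.52) and miR-129-3p (-1.16), against 10.4% of the 461 in either direction. MiR-124 was without signal in EC-Dicerflox replicates 1 and 3 and in EC-DicerWT replicate 1. Alternatives were other control RNAs, controls of the same card, the mean or median of all miRNAs, other treatments of weak wells, other filters, an ordinary linear model, trend and robust moderation, a replicate block, and leaving out each sample. Mature sequences and positions are those of RefSeq for GRCm38.p6, matched by strand name.

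Over 350 miRNAs, same-numbered samples shared deviations from their group means (correlations of 0.150, 0.224 and 0.431 for numbers 1, 2 and 3, each over 0.1), and the numbers were taken as pairs on this basis. Of the different-numbered pairs, EC-Dicerflox 1 with EC-DicerWT 2 (0.285) and EC-Dicerflox 2 with EC-DicerWT 1 (0.117) were also over 0.1, so that replicate 3 stood apart and numbers 1 and 2 were not told from each other. The labels call each sample a biological replicate, and no source states what a number marks, so that p-values measure the spread between these samples.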

Additional observations from a re-analysis of the deposited data

How the results depend on the processing

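Of the 198 log2 fold changes of the 10 miRNAs under the alternatives, 184 kept their direction and their side of an unadjusted p-value of 0.05, 9 lost and 3 gained it, and 2 turned their sign, both of miR-182, whose values ranged from -0.031 to 0.60 when 1 sample at a time was left out. The number of the 10 that were higher was 1 (miR-96) and became 0 with the replicate block, snoRNA135 alone, snoRNA202 alone, the mean of 5 control RNAs, the ordinary linear model and the filter on a CT under 40 in all samples, which removes miR-96; the number that were lower was 0 and became 1 (miR-200a) with snoRNA202 alone and with trend and robust moderation. Without 1 sample at a time, 0 to 1 were higher and 0 to 1 (miR-429) were lower. In the same fits, the estimates ranged from -0.95 to -0.31 for miR-200c, from -1.22 to -0.21 for miR-141 and from 0.55 to 1.17 for miR-203. The replicate block changed no other call of the 10. Over the 461 miRNAs, 9 were lower, 14 with snoRNA202 alone, and 5 were higher, 3 with U6 alone, 14 with the ordinary linear model, 8 with trend and robust moderation, and 4 to 10 without 1 sample. With an adjusted p-value under 0.05, 0 to 2 were found without 1 sample (miR-453 and miR-1938 without EC-Dicerflox replicate 1, miR-804 without EC-Dicerflox replicate 3), none of the 10. The number with a signal in all samples was 8, and 8 to 9 without 1 sample; 6 had a CT under 32 throughout. As the range in place of the SD, the CT differences had a median of 2.49 cycles for pairs of the same cluster and 2.91 cycles for the others. The cause of these changes was not tested.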

Other observations

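The delta CT profile over the 6 samples that was nearest to the mean of the 8 epithelial and sensory miRNAs with a signal throughout, by the root mean square difference after centring, was that of miR-148b (0.24 cycles). It was followed by miR-329 (0.277), miR-142-3p of leukocytes (0.285), miR-181c (0.29) and miR-466g (0.304), against a median of 0.608 cycles over the 332 miRNAs ranked. The members themselves and the other miRNAs known from epithelia were left out of the ranking. The mean profile itself ran from -0.428 cycles in EC-DicerWT replicate 3 to 0.75 cycles in EC-Dicerflox replicate 1, and did not separate the groups: EC-Dicerflox replicate 2 was at -0.392 cycles and EC-DicerWT replicate 2 at 0.331 cycles.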
